A study of Mus musculus with 15 samples.

Results

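The comparison described here sets livers of mice that expressed Activin A while on a diet used to model non-alcoholic steatohepatitis (NASH) against livers of chow-fed control mice. It rests on 6 of the 15 samples of the series, 3 per group. These were chosen by their labels, through a join of the 2 deposited count tables that hold them. The 3 NASH diet livers with green fluorescent protein (GFP) were joined in so that each gene's change on the diet could be set beside its distance from chow under Activin A. All 9 samples were livers of male C57BL/6J mice that had received a viral vector and were kept on their diet for 16 weeks. The chow group received GFP and ate standard chow. One NASH group received GFP and the other Activin A, and both ate the FPC NASH diet with sugar water. Per the labels, the vectors were AAV8, an adeno-associated virus, with the TBG (thyroxine binding globulin) promoter, which restricts expression to the liver. A set of 3 further NASH diet livers, which carried a scrambled short hairpin RNA behind the H1 promoter, are used below as a second NASH control. No chow group with Activin A was analysed here, so the Activin A and chow livers differ both in diet and in vector cargo, and within this comparison their parts cannot be told apart. The labels do not give the age of the mice, whether each library is its own animal, or a batch or date, so the p-values measure only the spread between these samples.

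Steatohepatitis combines fat in hepatocytes with injury, inflammation and scarring. Macrophages recruited from blood monocytes gather around fat-laden and dying hepatocytes and take on a lipid-handling programme, stellate cells lay down collagen, and bile duct-like epithelium expands. Hepatocytes at the same time store triglyceride in droplets, burn fat under the receptor PPARA and lose part of their mature programme, including genes that differ between the sexes. Activin A is a secreted dimer of the protein encoded by Inhba. It is a relative of transforming growth factor beta (TGF-beta), signals through SMAD2 and SMAD3, and is bound and neutralised by follistatin (Fst).

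The 9 libraries held 15276879 to 20530170 counts, and albumin took 4.53% to 6.70% of them. Levels are given as CPM, the count scaled to 1000000 counts per library. Libraries of the Activin A group lay close together, with a median SD of 0.144 log2 CPM over genes, against 0.266 in the chow group and 0.206 in the NASH GFP group. Of the markers that define hepatocytes, all 15 were tested, and their summed level was 88350 to 90580 CPM in Activin A, 67880 to 83800 CPM in NASH GFP and 95600 to 129500 CPM in chow livers. It was thus higher in every Activin A than in every NASH GFP library, and the part of this shift in the differences between the NASH groups given below was not tested. Of 18 markers of pancreas, adipose tissue, muscle, kidney and red cells, 9 passed the filter on low counts and summed to 157 to 207 CPM in Activin A livers and 140 to 188 CPM in chow livers. The first principal component took 49.2% of the variance and the second 15.5%.

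**Figure D1:**
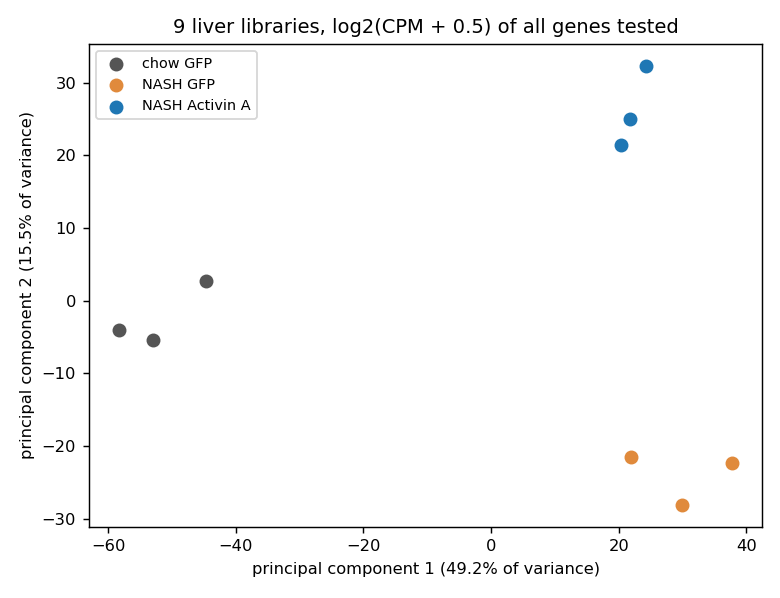
Each point is 1 of the 9 liver libraries, placed by the first 2 principal components of log2(CPM + 0.5) over all genes tested, with the share of variance on each axis. On component 1 the Activin A libraries (20.3 to 24.24) stood with the NASH GFP libraries (21.89 to 37.72), away from chow (-58.24 to -44.69). On component 2 the Activin A libraries stood at 21.45 to 32.28, above the chow libraries (-5.4 to 2.69) and the NASH GFP libraries (-28.11 to -21.47).

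Counts of Inhba, the gene that encodes the subunit of Activin A, were higher in the Activin A livers. Inhba (ENSMUSG00000041324, GRCm38 chromosome 13, 16011851 to 16031621) stood at 12.6, 10.7 and 9.42 CPM in the chow libraries, 8.13, 7.89 and 8.07 CPM in NASH GFP and 25.7, 23.9 and 25.3 CPM in Activin A. All Activin A libraries were above all others, and the difference from chow was 1.18 ± 0.15 (SE) on the log2 scale (adjusted p = 0.000164), where 1 is a 2-fold difference. Whether these reads came from the mouse gene or the vector was not tested.

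Livers with Activin A remained far from chow. Of 14901 genes tested, 1395 were higher and 1277 lower in Activin A NASH than in chow livers at an adjusted p under 0.05 (edgeR's quasi-likelihood test), which is 9.36% and 8.57% of genes. In NASH GFP livers 1999 genes (13.4%) were higher and 1384 (9.29%) lower than in chow. Between Activin A and NASH GFP livers 131 genes (0.879%) were higher and 374 (2.51%) lower, 3.39% in all. These shares of all genes are the background for each count of list members below, and a count near them is no trait of its list. Calls of at least 2-fold took 4.9% (higher) and 3.33% (lower) of genes for Activin A against chow, 9.29% and 3.14% for NASH GFP against chow, and 0.423% and 1.85% for Activin A against NASH GFP. Scaling by library size alone gave 2611 genes higher and 728 lower than chow under Activin A, and moved the median of all genes from -0.01 to 0.209. The 3 comparisons share libraries, so their values are set side by side below and no agreement between them is counted as support. With each Activin A library left out in turn the calls against chow fell to between 837 and 916 higher and between 742 and 834 lower, and without chow library 1 to 952 and 950.

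Genes that the diet raised by at least 2-fold numbered 1384, and those it lowered 468. These are called diet genes below. Of the raised ones, 693 (50.1%) were still called higher than chow in Activin A livers, 51 (3.7%) were back at chow level and 1 was past it. The 51 became 9 without Activin A library 1, 16 without Activin A library 3, 32 without NASH GFP library 1, 5 with an interval of 1.5-fold in place of the 2-fold one below, and 116 with scramble livers as the NASH control. Back means called lower than in NASH GFP livers, not called against chow, and with the 95% interval of the difference from chow inside 2-fold either way. The other 639 (46.2%) met neither definition and are called undecided, because a missed call does not show a return. Of the lowered ones, 348 (74.4%) were still called lower than chow, 2 were back and 118 (25.2%) were undecided. A further 26 genes higher and 36 lower were new, meaning not called on the diet alone and at least 2-fold away from both chow and NASH GFP livers under Activin A. No interval was set for the diet difference of new genes, so the diet may have moved some of them short of a call. Their median log2 differences from chow in NASH GFP livers were 0.12 (higher) and -0.05 (lower).

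Among the 693 raised genes that remained, 94 had eased, that is, were called lower than in NASH GFP livers, 579 were not called between the NASH groups, and 20 stood further from chow than in NASH GFP livers. For the lowered genes the numbers were 13, 312 and 23. The eased raised genes had a median log2 difference from chow of 2.19 in NASH GFP and 1.01 in Activin A livers. For the genes back at chow level the medians were 1.40 and 0.24, and for the undecided raised genes 1.77 and 0.74. Over all genes tested the medians were -0.04 and -0.01. NASH livers with a scrambled hairpin vector gave median differences from chow of 2.10, 1.32 and 1.51 for the same 3 groups of genes. The scramble libraries took no part in choosing these genes, but the chow libraries did, so these medians are not independent of the choice. These classes were built from the 3 comparisons themselves, so their medians are a description with no test.

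**Figure D2:**
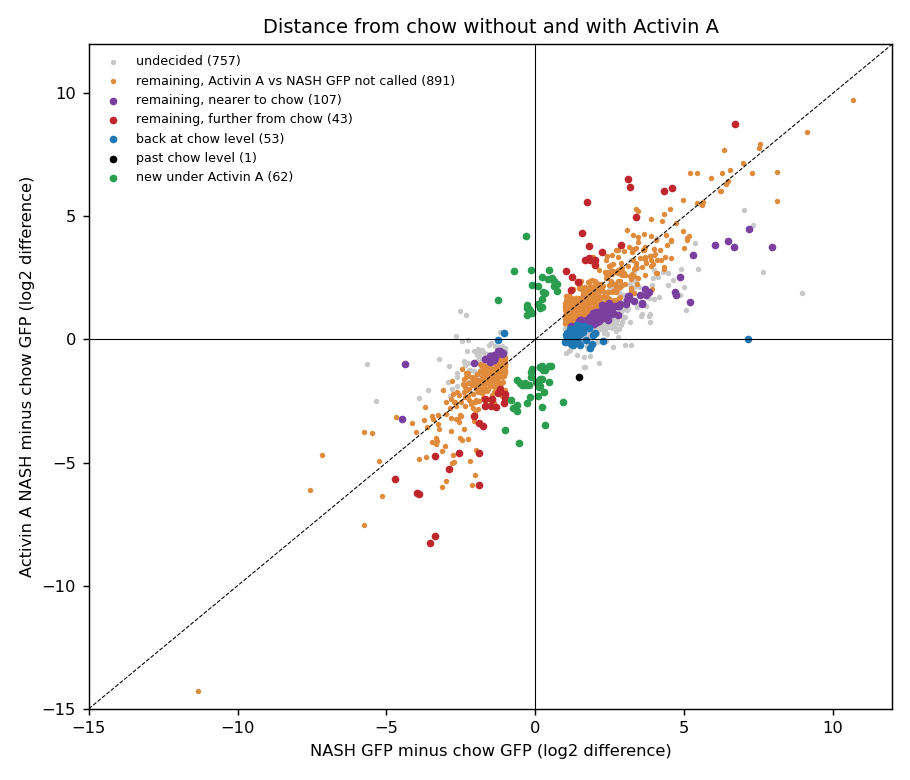
Each point is a gene, placed by its log2 difference from chow in NASH GFP livers (horizontal) and in Activin A NASH livers (vertical), coloured by class with the number of genes in brackets. Points on the dashed line had the same difference in both, points on the horizontal zero line were at chow level under Activin A, and both axes share the chow libraries.

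Many fat storage and synthesis genes stayed above chow. Of 18 lipid droplet genes, 14 were higher than chow in NASH GFP and 12 in Activin A livers, against 9.36% of all genes, and the list's median log2 difference from chow was 1.26 and 1.41. Cidea, a protein that fuses lipid droplets, stood at 0, 0.671 and 0.550 CPM in chow, 61.0, 87.0 and 67.8 CPM in NASH GFP and 107, 59.8 and 92.0 CPM in Activin A libraries. Both NASH groups were far above every chow library and overlapped each other, with a log2 difference of 7.77 ± 0.45 between Activin A and chow livers (adjusted p = 7.33e-07). Its relative Cidec stood at 5.24 to 9.47 CPM in chow, 192 to 228 CPM in NASH GFP and 174 to 230 CPM in Activin A libraries, 4.72 ± 0.22 above chow (adjusted p = 2.79e-07). Plin2, which coats droplets, and Cd36, a fatty acid importer, were 0.94 ± 0.19 and 2.06 ± 0.27 above chow (adjusted p = 0.00506 and 0.000246).

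Of 22 genes of fatty acid synthesis, 9 were higher and 3 lower than chow in NASH GFP livers and 13 higher and 3 lower in Activin A livers, with list medians of 0.86 and 1.15. The 13 became 6 without Activin A library 2, chow library 1 or chow library 3, and the 9 became 4 without NASH GFP library 1 or chow library 1. Against NASH GFP livers 2 members were higher under Activin A, and against scramble livers 11 were higher and 1 lower. Scd1 (GRCm38 chromosome 19, 44394451 to 44407709), the enzyme that desaturates stearate, reached 40150, 42700 and 38960 CPM in Activin A libraries against 3197, 7053 and 5199 CPM in chow and 39820, 28960 and 18000 CPM in NASH GFP. The log2 difference from chow was 2.97 ± 0.31 (adjusted p = 4.97e-05), and the 2 NASH groups overlapped. Srebf1, the transcription factor that drives this programme, stood at 221, 269 and 239 CPM in chow, 563, 469 and 258 CPM in NASH GFP and 860, 1081 and 1019 CPM in Activin A. All Activin A libraries lay above both other groups, 2.01 ± 0.23 above chow (adjusted p = 0.000113) and 1.19 ± 0.23 above NASH GFP (adjusted p = 0.0136). The second of these calls was lost without Activin A library 2 or 3 (adjusted p up to 0.0619).

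Fat burning genes were likewise still raised. Of 28 PPARA target and fat oxidation genes, 19 were higher than chow in NASH GFP and 16 in Activin A livers, with medians of 0.82 and 0.87. None was lower in either by edgeR or DESeq2, and none at an unadjusted p under 0.05. Pdk4, which spares glucose by blocking pyruvate oxidation, stood at 3.95 to 8.11 CPM in chow and 35.9 to 43.1 CPM in Activin A libraries, 2.72 ± 0.20 above chow (adjusted p = 3.67e-06). Fgf21, a fasting hormone made by hepatocytes, was 4.17 ± 0.37 above chow in Activin A livers (adjusted p = 1.54e-05) and 3.46 ± 0.37 in NASH GFP livers. Apoa4, an apolipoprotein that follows triglyceride load, was 4.40 ± 0.24 above chow (adjusted p = 6.61e-07).

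Cholesterol synthesis stayed low. Of 24 genes of the pathway and its regulator SREBP2, 18 were lower than chow in NASH GFP and 19 in Activin A livers, and none was higher in either by edgeR or DESeq2, or at an unadjusted p under 0.05. Between the NASH groups edgeR called none, DESeq2 called 1 higher and 1 lower, and 1 was higher and 2 lower at an unadjusted p under 0.05. Against scramble livers, however, 9 were higher and 1 lower under Activin A. The list medians were -1.35 and -1.54, and all 16 of its diet genes remained. Sqle, squalene epoxidase, stood at 105, 66.0 and 91.3 CPM in chow, 11.8, 9.86 and 4.44 CPM in NASH GFP and 4.25, 5.37 and 4.30 CPM in Activin A libraries, a log2 difference of -4.25 ± 0.31 from chow (adjusted p = 3.45e-06). Nsdhl and Tm7sf2, enzymes of the later steps, were at -2.70 ± 0.20 and -2.52 ± 0.15 (adjusted p = 3.45e-06 and 7.57e-07). Abcg5 and Abcg8, which together form the transporter that exports sterols into bile, went the other way. Abcg5 stood at 76.4, 75.0 and 79.9 CPM in chow, 145, 191 and 198 CPM in NASH GFP and 286, 335 and 313 CPM in Activin A libraries. Its 3 groups did not overlap, and it was 2.00 ± 0.14 above chow (adjusted p = 3.2e-06) and 0.80 ± 0.14 above NASH GFP (adjusted p = 0.00839). Abcg8 was 1.36 ± 0.16 above chow (adjusted p = 9.34e-05).

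Genes that are higher in male than in female mouse liver were low in both NASH groups. Of 21 male-biased genes, 18 were lower than chow in NASH GFP and all 21 in Activin A livers, against 8.57% of all genes, with medians of -2.07 and -3.12. Between the NASH groups 9 were lower and 1 higher under Activin A, and the 9 became 2 without Activin A library 1. The summed level of the list, 56950 to 73090 CPM in chow, was 6075 to 14420 CPM in NASH GFP and 6514 to 6644 CPM in Activin A libraries, so the NASH groups overlapped. Selenbp2 stood at 1882, 1387 and 1718 CPM in chow, 55.0, 72.7 and 64.4 CPM in NASH GFP and 35.6, 28.1 and 35.6 CPM in Activin A libraries. The 3 groups did not overlap, and the log2 difference from chow was -5.66 ± 0.20 (adjusted p = 1.36e-08). Mup7, a major urinary protein that carries pheromones, stood at 16750, 9404 and 13370 CPM in chow, 212, 1546 and 2090 CPM in NASH GFP and 40.5, 68.9 and 48.1 CPM in Activin A, with no overlap between groups. It was at -7.98 ± 0.75 against chow (adjusted p = 2.01e-05) and -4.62 ± 0.64 against NASH GFP (adjusted p = 0.00251). Mup genes are near-identical copies whose reads could be split between members, so which member carries the value is uncertain. Slco1a1, a hepatocyte importer of organic anions, was at -1.89 ± 0.45 in NASH GFP and -4.61 ± 0.51 in Activin A livers against chow (adjusted p = 7.14e-05 for the second), and its call against NASH GFP was lost without Activin A library 1 (adjusted p = 0.0555). Serpina1e, a protease inhibitor, was the 1 member that edgeR called nearer to chow than in NASH GFP livers. DESeq2 called 2 members higher between these groups, and against scramble livers 4 were higher. Serpina1e stood at 16100, 13300 and 14860 CPM in chow, 540, 631 and 840 CPM in NASH GFP and 1605, 1571 and 1551 CPM in Activin A libraries. Serpina1 genes are close copies too, so this value has the same uncertainty.

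Of 16 listed genes that are higher in females, 8 passed the filter on low counts. Some of these are near 0 in chow and passed through the NASH groups, so no count or median is read from them, and single members are given. Acot3, a peroxisomal thioesterase, stood at 0.120, 2.61 and 2.13 CPM in chow, 19.6, 18.8 and 20.9 CPM in NASH GFP and 31.4, 30.2 and 30.5 CPM in Activin A libraries, 4.28 ± 0.45 above chow (adjusted p = 5.01e-05). Cyp2b9, a cytochrome P450, had no count in chow libraries and stood at 6.43, 4.91 and 6.55 CPM under Activin A, at least 88.6-fold higher than a floor of 3 counts over the chow group, with the same uncertainty between Cyp2b copies. Cyp17a1, a steroid hydroxylase, had eased, from 2.82 ± 0.17 above chow in NASH GFP to 1.36 ± 0.17 in Activin A livers (adjusted p = 0.000152).

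Of 34 complement and coagulation genes, 21 were lower than chow in NASH GFP and 23 in Activin A livers, with medians of -0.64 and -0.69. C8b, a subunit of the complement attack complex, stood at 646, 549 and 522 CPM in chow and 60.5, 62.2 and 60.4 CPM in Activin A libraries, -3.24 ± 0.28 (adjusted p = 1.2e-05). The complement genes that were higher included C1qb, a macrophage product, at 0.66 ± 0.14 (adjusted p = 0.00612). Acute phase genes had no common direction on the diet. Of 24 tested, 3 were higher and 6 lower than chow in NASH GFP livers, against 13.4% and 9.29% of all genes, with a median of 0.06. In Activin A livers 11 were lower, against 8.57% of all genes, with a median of -0.68. None of its 3 diet genes remained, 1 being back and 2 undecided. The lower ones under Activin A included Crp at -0.94 ± 0.15 (adjusted p = 0.000845). Crp was also called against chow in NASH GFP livers, a call lost without NASH GFP library 1 (adjusted p = 0.0556), and was not called between the NASH groups. The 11 became 3 without Activin A library 2 and 6 with library size scaling, and the 6 became 2 without NASH GFP library 1 or chow library 1 and 1 with library size scaling. Of 18 periportal and urea cycle genes 11 were lower than chow in both NASH groups, with Otc at -1.25 ± 0.13 under Activin A (adjusted p = 6.08e-05). Among 15 hepatocyte markers 9 were lower than chow in NASH GFP and 5 in Activin A livers, or 3 without Activin A library 2. Ttr, the thyroxine carrier transthyretin, stood at 4691, 4849 and 7277 CPM in chow, 3370, 3470 and 2920 CPM in NASH GFP and 6494, 6592 and 6869 CPM in Activin A. Its Activin A libraries overlapped chow and lay above all NASH GFP libraries, 1.02 ± 0.17 higher (adjusted p = 0.00674).

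Of 24 proliferation genes, 14 were higher than chow in NASH GFP and 9 in Activin A livers, and 4 without Activin A library 2. The 14 became 8 without NASH GFP library 1. Of 14 diet genes in this list 9 remained and 5 were undecided. Ccnd1, the G1 cyclin, stood at 10.1, 12.8 and 7.84 CPM in chow, 99.0, 89.3 and 55.0 CPM in NASH GFP and 57.1, 76.6 and 68.8 CPM in Activin A libraries, 2.71 ± 0.24 above chow (adjusted p = 1.33e-05). Of 17 p53 target genes, 9 were higher than chow in NASH GFP livers, and 6 were higher and 1 lower in Activin A livers. Of its 6 diet genes 4 remained, 1 of them eased, and 2 were undecided. Cdkn1a, the cell cycle inhibitor p21, was 3.42 ± 0.58 above chow (adjusted p = 0.00159). Its Activin A libraries, at 114, 61.4 and 96.3 CPM, were all above the NASH GFP libraries (42.3 to 54.3 CPM) and the chow libraries. Cdkn1a was not called between the NASH groups, whose libraries did not overlap for 25.7% of all genes tested.

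**Figure D3:**
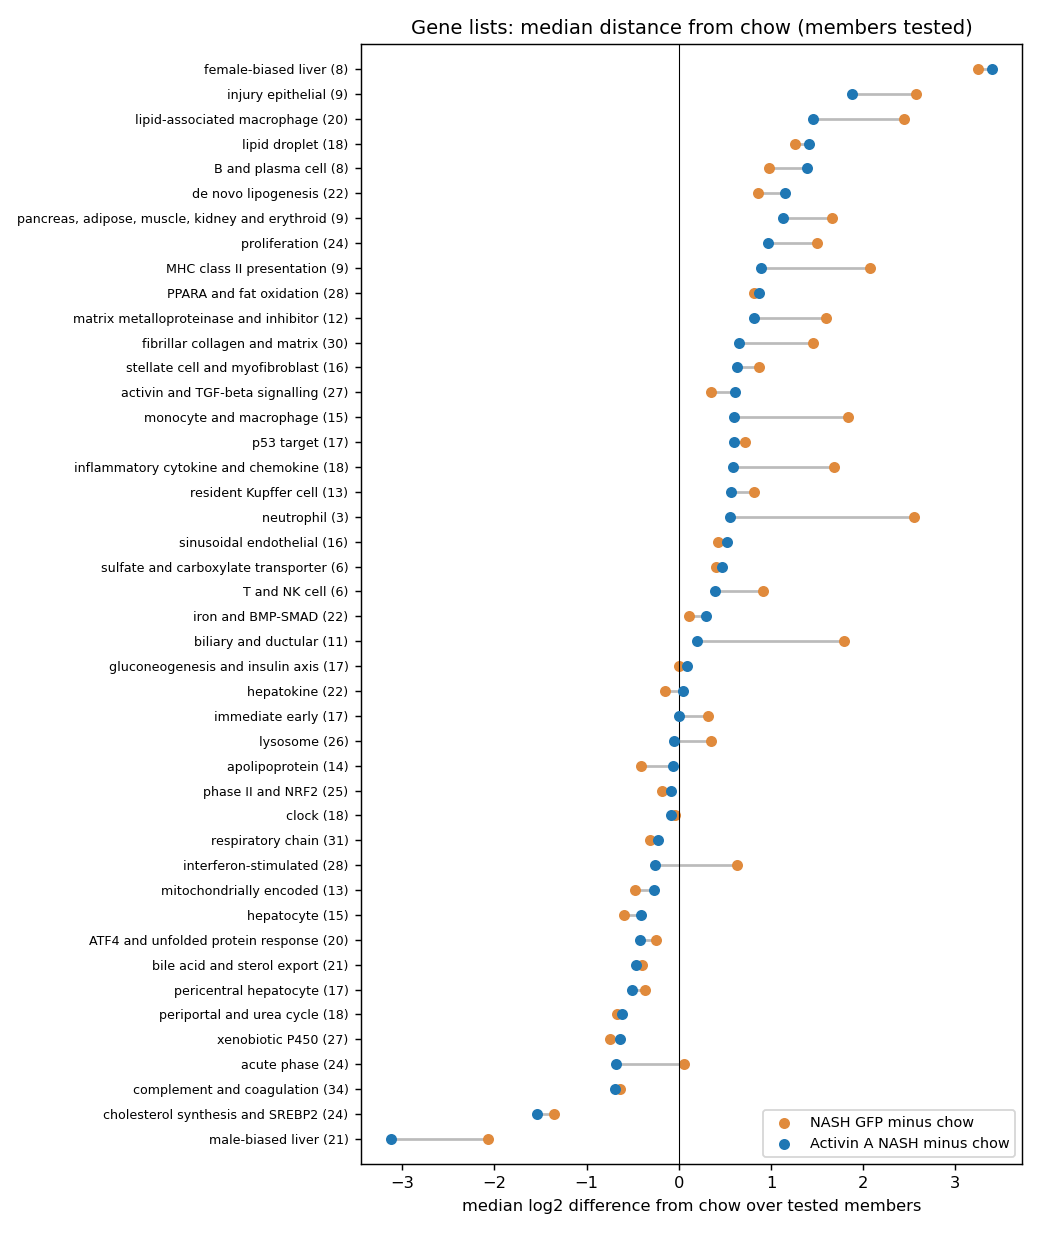
For each gene list, the orange point is the median log2 difference from chow over its tested members in NASH GFP livers and the blue point the same in Activin A NASH livers, with the number of members tested in brackets. The points lie together for lipid droplet (1.26 and 1.41) and cholesterol synthesis (-1.35 and -1.54) genes and apart for monocyte and macrophage (1.83 and 0.60) and biliary (1.79 and 0.20) genes. Some female-biased members passed the filter only through the NASH groups, so the medians of that list are not read.

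Macrophage genes had come part of the way back. Of 20 genes of lipid-associated macrophages, the cells that gather around dying fat-laden hepatocytes, 18 were higher than chow in NASH GFP and 15 in Activin A livers. The list median fell from 2.44 to 1.46, and 13 members were lower under Activin A than in NASH GFP livers (2.51% of all genes were), or 8 without Activin A library 3. The summed level of the list was 1080 to 1483 CPM in chow, 2591 to 2840 CPM in NASH GFP and 1805 to 1818 CPM in Activin A libraries. Gpnmb, a transmembrane glycoprotein of these cells (ENSMUSG00000029816, GRCm38 chromosome 6, 49036546 to 49070929), stood at 0.241, 0.149 and 0.481 CPM in chow, 40.9, 26.02 and 24.7 CPM in NASH GFP and 5.67, 3.37 and 2.97 CPM in Activin A libraries. No groups overlapped, and Activin A livers were 3.74 ± 0.44 above chow (adjusted p = 0.000121) and at -2.93 ± 0.28 against NASH GFP (adjusted p = 0.000254).

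Other members had the same order. Mmp12, macrophage elastase, stood at 0.120, 0.224 and 0.0687 CPM in chow, 23.2, 16.9 and 21.2 CPM in NASH GFP and 3.87, 2.85 and 2.85 CPM in Activin A libraries, 4.48 ± 0.38 above chow (adjusted p = 9.91e-06). Trem2, a lipid-sensing receptor, was 1.94 ± 0.43 above chow (adjusted p = 0.00762) and Lgals3, galectin-3, 1.45 ± 0.23 (adjusted p = 0.0011), against 3.83 and 3.60 in NASH GFP livers. Lpl, lipoprotein lipase, which hepatocytes can also express in fatty liver, was not lower, at 2.07 ± 0.17 in NASH GFP and 1.96 ± 0.17 in Activin A livers. The list members Fabp5 and Atp6v0d2 were below chow under Activin A, at -1.76 ± 0.20 and -1.74 ± 0.39 (adjusted p = 9.1e-05 and 0.00887). In bulk tissue, fewer cells of a type and less RNA per cell cannot be told apart.

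General monocyte and macrophage genes were divided between eased, back and undecided. Of 15 such genes, 14 were higher than chow in NASH GFP and 6 in Activin A livers, or 2 without any 1 Activin A library or without chow library 1. All 14 were diet genes, of which 6 had eased, 5 were back and 3 were undecided. The summed level was 168 to 181 CPM in chow, 535 to 647 CPM in NASH GFP and 213 to 250 CPM in Activin A libraries. Mpeg1, perforin-2 of macrophages, stood at 77.6, 50.9 and 48.9 CPM in chow, 181, 154 and 166 CPM in NASH GFP and 49.9, 54.5 and 49.5 CPM in Activin A libraries. Its Activin A libraries lay within the chow range, at -0.22 ± 0.17 against chow (adjusted p = 0.407) and -1.71 ± 0.17 against NASH GFP (adjusted p = 0.00033). Adgre1, which encodes F4/80, was at 0.45 ± 0.25 against chow (adjusted p = 0.234), and Cybb, the phagocyte oxidase subunit, at 1.00 ± 0.20 (adjusted p = 0.00443). Adgre1 lost its call against NASH GFP without Activin A library 1 (adjusted p = 0.0513). Of 13 Kupffer cell genes 5 were higher than chow in each NASH group, the Activin A count being 2 without Activin A library 2 or 3 or chow library 1. Timd4, a marker of resident Kupffer cells, was at -0.15 ± 0.32 (adjusted p = 0.789).

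Some antigen presentation genes had eased. Of 10 MHC class II genes listed 9 were tested, and 8 were higher than chow in NASH GFP and 5 in Activin A livers, and 3 without Activin A library 1, Activin A library 2 or chow library 1. Against NASH GFP livers 5 were lower under Activin A, and of the 8 diet genes 5 had eased and 3 were undecided. H2-Aa stood at 19.4, 18.3 and 21.9 CPM in chow, 105, 117 and 76.0 CPM in NASH GFP and 37.4, 36.0 and 38.5 CPM in Activin A libraries. The 3 groups did not overlap, with Activin A livers 0.89 ± 0.16 above chow (adjusted p = 0.00179) and at -1.42 ± 0.15 against NASH GFP (adjusted p = 0.000513). Cd74, the invariant chain, was 0.71 ± 0.16 above chow (adjusted p = 0.00871).

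Inflammatory signal genes were split between eased, back and undecided. Of 20 cytokine and chemokine genes listed 18 were tested, and 13 were higher than chow in NASH GFP and 5 in Activin A livers, and 9 were lower under Activin A than in NASH GFP, or 2 without Activin A library 1. Il1rn, which encodes the interleukin-1 receptor antagonist, stood at 1.63, 3.51 and 1.17 CPM in chow, 7.95, 10.97 and 11.5 CPM in NASH GFP and 2.18, 1.71 and 2.18 CPM in Activin A libraries. The Activin A libraries lay within the chow range, at -0.05 ± 0.37 against chow (adjusted p = 0.943) and -2.33 ± 0.34 against NASH GFP (adjusted p = 0.00345). Relb, an NF-kappaB subunit, was at 0.25 ± 0.27 and Cd14, the lipopolysaccharide co-receptor, at -0.19 ± 0.31 against chow (adjusted p = 0.571 and 0.729), after 2.02 and 1.91 in NASH GFP livers. Vcam1, an adhesion molecule for leukocytes, remained 1.37 ± 0.16 above chow (adjusted p = 0.000121). Ccl2, the chemokine that draws monocytes, was undecided at 0.93 ± 0.50 (adjusted p = 0.23).

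Several interferon-stimulated genes were below chow, and most of those the diet had raised were undecided. Of 28 genes that cells switch on in response to interferons, 12 were higher than chow in NASH GFP livers. In Activin A livers none was higher by edgeR or DESeq2 (1 at an unadjusted p under 0.05, and 1 with library size scaling), and 9 were lower than chow, against 8.57% of all genes. Of the 10 diet genes in this list 3 were back and 7 undecided. The 12 became 20 with library size scaling. The list median went from 0.63 to -0.26, and 16 members were lower under Activin A than in NASH GFP livers, or 6 without Activin A library 3. Irf7, the transcription factor that amplifies the response, stood at 21.2, 23.7 and 24.8 CPM in chow, 36.7, 36.9 and 45.3 CPM in NASH GFP and 12.7, 16.1 and 15.7 CPM in Activin A libraries. No groups overlapped, and Activin A livers were at -0.66 ± 0.15 against chow (adjusted p = 0.00789) and -1.43 ± 0.15 against NASH GFP (adjusted p = 0.000356). Iigp1 and Ifi47, interferon-induced GTPases, were at -1.35 ± 0.20 and -1.38 ± 0.20 against chow (adjusted p = 0.000524 and 0.000607), and Oasl1 at -1.25 ± 0.21 (adjusted p = 0.00135). Ifit3, which binds viral RNA complexes, was back, at 6.26, 7.16 and 6.46 CPM in chow, 10.9, 14.2 and 15.0 CPM in NASH GFP and 4.58, 7.54 and 6.61 CPM in Activin A libraries. Cxcl10, the chemokine that draws T cells, was also back, at -0.14 ± 0.32 against chow (adjusted p = 0.807). Both lost their call against NASH GFP without Activin A library 1 or 3 (adjusted p up to 0.127), and Cxcl10 also without NASH GFP library 1 or 2. Ifit1 was new, at -1.08 ± 0.27 against chow (adjusted p = 0.0162), a call that was lost without Activin A library 3.

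The promoters of 3 of these genes are shown because interferons are known to switch on such genes through a shared DNA element. They are the 250 bases before the gene start, 5′ to 3′ on the gene's strand, from RefSeq's annotation of GRCm38.p6, and capitals mark matches to the interferon-stimulated response element, searched on both strands as GAAA, any 2 bases and GAAA. Cxcl10 lies on the minus strand at chr5:92348890-92349139, Ifit3 on the plus strand at chr19:34583279-34583528 and Ifit1 on the plus strand at chr19:34640639-34640888.
Cxcl10: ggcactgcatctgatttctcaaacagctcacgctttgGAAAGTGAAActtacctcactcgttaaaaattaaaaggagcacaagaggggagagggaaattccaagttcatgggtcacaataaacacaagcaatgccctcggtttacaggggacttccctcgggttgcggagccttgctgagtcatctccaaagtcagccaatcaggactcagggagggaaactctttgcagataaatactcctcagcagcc
Ifit3: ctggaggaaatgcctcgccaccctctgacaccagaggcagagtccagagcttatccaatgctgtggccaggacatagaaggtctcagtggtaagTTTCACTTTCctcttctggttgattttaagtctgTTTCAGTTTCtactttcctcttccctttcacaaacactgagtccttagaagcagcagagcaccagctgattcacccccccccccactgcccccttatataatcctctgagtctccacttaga
Ifit1: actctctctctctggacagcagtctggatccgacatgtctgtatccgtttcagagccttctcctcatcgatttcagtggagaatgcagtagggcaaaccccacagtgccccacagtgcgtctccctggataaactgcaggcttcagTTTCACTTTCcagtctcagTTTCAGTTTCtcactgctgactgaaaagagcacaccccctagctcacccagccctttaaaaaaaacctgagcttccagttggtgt

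Ifit3 and Ifit1 hold 2 matches each and Cxcl10 holds 1. Of the 28 listed genes, 21 had a promoter in the RefSeq table, and 13 of these (61.9%) held a match, against 3.46% of the promoters of all 27025 genes in the table and 3.36% of tested genes. Of the 51 raised genes back at chow level, 35 had a promoter and 8 (22.9%) held a match, Ifit3 among them. In all 9 motifs were searched on both strands, the others being a sterol regulatory element, a STAT site, the SMAD box CAGAC, its longer form CAGACA, a SMAD palindrome, a PPAR element and 2 forms of an NF-kappaB site, of which the exact form is a case of the looser one. The SMAD box CAGAC was in 45.7% of tested promoters, in 18 of 20 promoters (90.0%) of genes new and higher under Activin A, and in 5 of 15 (33.3%) of raised genes that stood further from chow. It was also in 54.5% of promoters of genes new and lower, and in 27.8% of lowered genes further from chow. Among raised genes it was in 58.6% of those eased and 54.3% of those back. Among lowered genes it was in 5 of 6 eased and 2 of 2 back. The longer form was in 7 of 20 promoters (35.0%) of genes new and higher, against 16.3% of tested promoters. These motifs were chosen after the values were seen, and a match is a description of the letters only.

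Bile duct genes were not called above chow. Of 13 biliary and ductular genes listed 11 were tested, and 7 were higher than chow in NASH GFP livers and none was called in either direction in Activin A livers by edgeR or DESeq2, with medians of 1.79 and 0.20. At an unadjusted p under 0.05, 1 was higher and 1 lower. The 7 became 4 without NASH GFP library 2 or chow library 1. Their summed level was 77.3 to 95.1 CPM in chow, 158 to 331 CPM in NASH GFP and 71.7 to 75.9 CPM in Activin A libraries. Spp1, osteopontin, a secreted protein of bile ducts and macrophages (GRCm38 chromosome 5, 104435118 to 104441050), made up much of this, at 49.2, 41.6 and 62.6 CPM in chow, 160, 271 and 114 CPM in NASH GFP and 40.4, 42.1 and 37.5 CPM in Activin A. It was at -0.37 ± 0.25 against chow (adjusted p = 0.356) and -2.19 ± 0.26 against NASH GFP (adjusted p = 0.00108). Ehf, an epithelial transcription factor, stood at 0.522 to 0.756 CPM in chow, 3.31 to 6.30 CPM in NASH GFP and 0.709 to 1.14 CPM in Activin A libraries, at -2.29 ± 0.37 against NASH GFP (adjusted p = 0.00531). The diet genes of this list other than Spp1, 6 in all and Ehf among them, were undecided.

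Collagen genes were mixed, with many undecided. Of 30 matrix genes, 25 were higher than chow in NASH GFP and 12 in Activin A livers, or 7 without Activin A library 1, with medians of 1.46 and 0.65. Of its 23 diet genes 10 remained, 5 of them eased, 1 was back and 12 were undecided. Col1a1, the main fibrillar collagen chain (GRCm38 chromosome 11, 94936224 to 94953042), stood at 9.21, 9.17 and 7.91 CPM in chow, 62.7, 67.5 and 32.0 CPM in NASH GFP and 18.5, 16.7 and 19.95 CPM in Activin A libraries. The groups did not overlap, with Activin A livers 1.06 ± 0.24 above chow (adjusted p = 0.00897) and at -1.56 ± 0.23 against NASH GFP (adjusted p = 0.00338). Col3a1 was undecided at 0.65 ± 0.21 (adjusted p = 0.0524) although every Activin A library (48.7 to 55.4 CPM) lay above every chow library (31.8 to 33.7 CPM). Over all genes tested, 36.6% had Activin A and chow groups without overlap. The matrix proteoglycans Bgn and Dcn were not called between the NASH groups, with Bgn at 0.85 ± 0.15 and Dcn at 0.83 ± 0.16 above chow under Activin A (adjusted p = 0.00218 and 0.00283). Of 16 stellate cell genes, 11 were higher than chow in NASH GFP and 7 in Activin A livers, among them Pdgfra at 1.21 ± 0.17 (adjusted p = 0.0005). Acta2, the smooth muscle actin of activated stellate cells, was at -0.10 ± 0.32 against chow (adjusted p = 0.878).

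Epithelial injury genes parted company. Ly6d, a surface protein of stratified epithelia that the diet had raised strongly, stood at 0.0602, 0.298 and 0.550 CPM in chow, 78.6, 106 and 37.6 CPM in NASH GFP and 3.27, 3.996 and 4.85 CPM in Activin A libraries. It was still 3.74 ± 0.59 above chow (adjusted p = 0.000902). Fam83a stood at 0.241 to 0.481 CPM in chow, 19.4 to 32.4 CPM in NASH GFP and 28.1 to 44.7 CPM in Activin A libraries, 6.74 ± 0.33 above chow (adjusted p = 3.29e-07) with the NASH groups overlapping. Sprr1a, of the cornified envelope, had no count in chow and 1.07 to 5.27 CPM in NASH GFP libraries, and under Activin A it was found in 1 library at 0.0571 CPM.

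**Figure D4:**
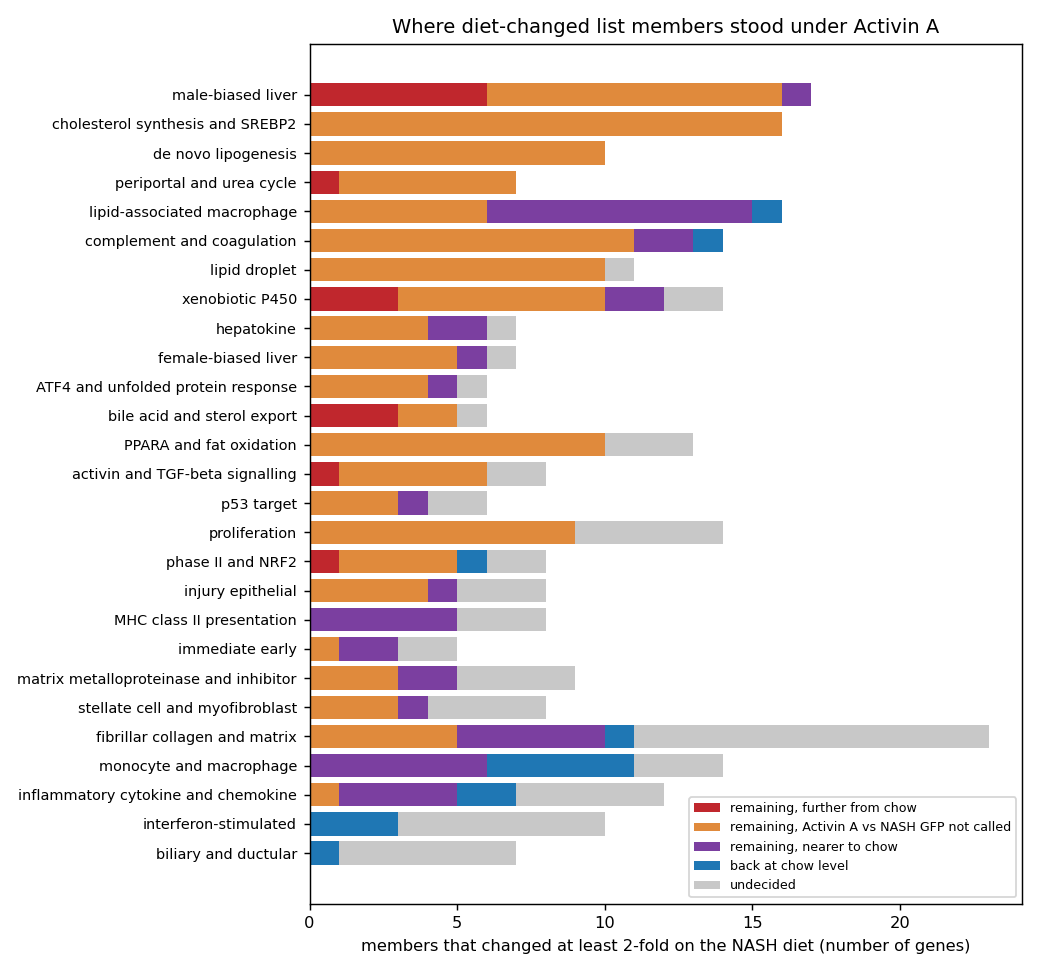
Bars count, for each list with at least 5 members that the diet had changed 2-fold or more, how those members stood under Activin A. All 16 such cholesterol synthesis genes remained, the 14 monocyte and macrophage genes had eased (6), were back (5) or undecided (3), and of the 10 interferon-stimulated genes 3 were back and 7 undecided. Some female-biased members passed the filter only through the NASH groups, so the bar of that list is not read.

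A set of 43 diet genes stood further from chow under Activin A than on the diet alone. Among the 20 raised ones, Slc13a4, a sulfate transporter (ENSMUSG00000029843, GRCm38 chromosome 6, 35267957 to 35308131), stood at 0.602, 0.597 and 0.275 CPM in chow, 1.48, 1.44 and 2.09 CPM in NASH GFP and 30.2, 21.0 and 22.1 CPM in Activin A libraries. No groups overlapped, and it was 5.60 ± 0.30 above chow (adjusted p = 6.61e-07) and 3.87 ± 0.25 above NASH GFP (adjusted p = 2.3e-05). Slc13a3, a carrier of dicarboxylates, was 2.76 ± 0.20 above chow (adjusted p = 2.83e-06), at 145, 125 and 138 CPM in Activin A libraries against 16.6 to 23.0 CPM in chow. Lepr, the leptin receptor, stood at 1.75, 2.91 and 1.99 CPM in chow, 13.1, 26.7 and 28.5 CPM in NASH GFP and 86.0, 61.8 and 63.5 CPM in Activin A, 4.99 ± 0.32 above chow (adjusted p = 1.32e-06). Pmepa1, a target and inhibitor of SMAD signalling, was 3.21 ± 0.28 above chow (adjusted p = 1.1e-05) and 1.54 ± 0.24 above NASH GFP (adjusted p = 0.00465).

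Of 27 activin and TGF-beta signalling genes, 11 were higher and 2 lower than chow in NASH GFP livers, against 13.4% and 9.29% of all genes. In Activin A livers 13 were higher, against 9.36% of all genes. None was lower there by edgeR or DESeq2, and 1 at an unadjusted p under 0.05. Smad7 and Smad6, inhibitors of these pathways, were 0.85 ± 0.18 and 0.78 ± 0.14 above chow (adjusted p = 0.00695 and 0.0022). Neither was called against chow in NASH GFP livers, and neither was called between the NASH groups. Fst, follistatin, was new, at 6.20, 3.13 and 3.64 CPM in chow, 4.29, 4.95 and 5.35 CPM in NASH GFP and 11.1, 9.36 and 11.8 CPM in Activin A libraries. The Activin A libraries were above both other groups, 1.29 ± 0.25 above chow (adjusted p = 0.00376), but its call against NASH GFP was lost without any 1 Activin A library and without NASH GFP library 1 or 2 (adjusted p up to 0.124). Hamp, the iron hormone hepcidin, was at 0.56 ± 0.26 against chow (adjusted p = 0.162).

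Among the 23 lowered genes further from chow were 8 Mup genes and 3 of the Cyp2c family of cytochrome P450 enzymes. Cyp2c54 stood at 267, 269 and 319 CPM in chow, 21.9, 76.4 and 133 CPM in NASH GFP and 3.65, 5.71 and 4.91 CPM in Activin A libraries, -5.92 ± 0.54 against chow (adjusted p = 1.77e-05). Cyp2f2, of periportal hepatocytes in mouse liver, was at -2.21 ± 0.16 (adjusted p = 3.45e-06), at 220, 332 and 283 CPM in Activin A libraries against 627 to 661 CPM in NASH GFP and 1117 to 1359 CPM in chow. Akr1d1, a reductase of bile acid synthesis, was at -2.00 ± 0.13 (adjusted p = 1.5e-06). Cyp2c genes are close relatives, so reads could be split between them.

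The 62 new genes include several regulators. Mycn, a MYC family transcription factor (GRCm38 chromosome 12, 12936093 to 12941914), stood at 0.662, 1.12 and 0.756 CPM in chow, 1.30, 0.914 and 1.28 CPM in NASH GFP and 3.93, 8.22 and 5.70 CPM in Activin A libraries. It was 2.80 ± 0.37 above chow (adjusted p = 0.000281) and 2.34 ± 0.35 above NASH GFP (adjusted p = 0.00355), with the Activin A libraries above all others. Peg3, an imprinted zinc finger gene, was 2.47 ± 0.36 above chow (adjusted p = 0.000531), at 67.7, 68.0 and 71.5 CPM under Activin A against 7.77 to 14.8 CPM in chow. The clock gene Cry1 was 1.29 ± 0.20 above chow (adjusted p = 0.000837). None of 18 clock genes was called in NASH GFP livers by edgeR or DESeq2 (2 higher at an unadjusted p under 0.05). With library size scaling 3 were higher there and with the replicate block 2. In scramble livers, however, 3 were higher and 4 lower than chow, so clock changes were not confined to Activin A livers. Nr1d1, another clock gene, varied within the Activin A group from 10.03 to 72.8 CPM, and the labels do not give a time of day. Estrogen receptor Esr1 was 1.07 ± 0.17 above chow (adjusted p = 0.00111) and adenosine receptor Adora1 1.63 ± 0.15 (adjusted p = 2.01e-05). Hsd17b6, a steroid dehydrogenase, rose to 325, 427 and 384 CPM from 56.2, 121 and 121 CPM in chow, 1.92 ± 0.25 (adjusted p = 0.000241).

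Immunoglobulin genes were higher than chow under Activin A. Of 8 B and plasma cell genes, 2 were higher than chow in NASH GFP livers, or none without NASH GFP library 3, and 4 in Activin A livers. Ighm, the IgM heavy chain, stood at 12.7, 15.3 and 15.6 CPM in chow, 36.2, 15.3 and 51.4 CPM in NASH GFP and 74.9, 92.4 and 84.9 CPM in Activin A libraries, 2.52 ± 0.33 above chow (adjusted p = 0.000227). Its Activin A libraries were above all others, but the call against NASH GFP was lost without any 1 Activin A library, NASH GFP library 1 or chow library 1 or 2 (adjusted p up to 0.129). Ighg1, of IgG1, was new, at 0.241, 0.447 and 0.275 CPM in chow, 0.358, 0.289 and 0.107 CPM in NASH GFP and 10.4, 2.17 and 5.64 CPM in Activin A libraries, 4.22 ± 0.62 above chow (adjusted p = 0.000563). Immunoglobulin constant genes are close relatives, so reads could be split between them. Ms4a1, which encodes CD20 of B cells, was at 1.07 ± 0.56 (adjusted p = 0.21), and of 6 T and NK cell genes 1, Cd8a, was called higher than chow in each NASH group. Its call under Activin A was kept only without Activin A library 1, of the 9 libraries left out in turn.

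New genes below chow included receptors and metabolic enzymes. Raet1e, a stress ligand recognised by NK cells (GRCm38 chromosome 10, 22158569 to 22374139), stood at 4.70, 6.64 and 8.46 CPM in chow, 9.56, 7.26 and 7.91 CPM in NASH GFP and 0.709, 0.514 and 0.546 CPM in Activin A libraries. It was at -3.47 ± 0.30 against chow (adjusted p = 1.33e-05) and -3.79 ± 0.30 against NASH GFP (adjusted p = 0.00011), with every Activin A library below all others. Prlr, the prolactin receptor, stood at 65.1, 74.6 and 67.2 CPM in chow, 45.6, 43.1 and 47.7 CPM in NASH GFP and 6.33, 14.2 and 12.1 CPM in Activin A, -2.68 ± 0.23 against chow (adjusted p = 1.04e-05). Bhmt, which remethylates homocysteine, was at -2.44 ± 0.29 (adjusted p = 0.000123) and Sult1a1, a sulfotransferase, at -1.87 ± 0.18 (adjusted p = 3.09e-05). Rhbg, an ammonium transporter of pericentral hepatocytes, was at -2.89 ± 0.35 (adjusted p = 0.00014). Mt1, metallothionein, was called at -2.54 ± 0.79 (adjusted p = 0.042), but ranged from 33.3 to 198 CPM within chow and lost its call without any 1 Activin A library and without chow library 1 or 3. For Bhmt and Prlr the diet change just missed the threshold (adjusted p = 0.0502 and 0.0545), so they lie at the edge of the definition.

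**Figure D5:**
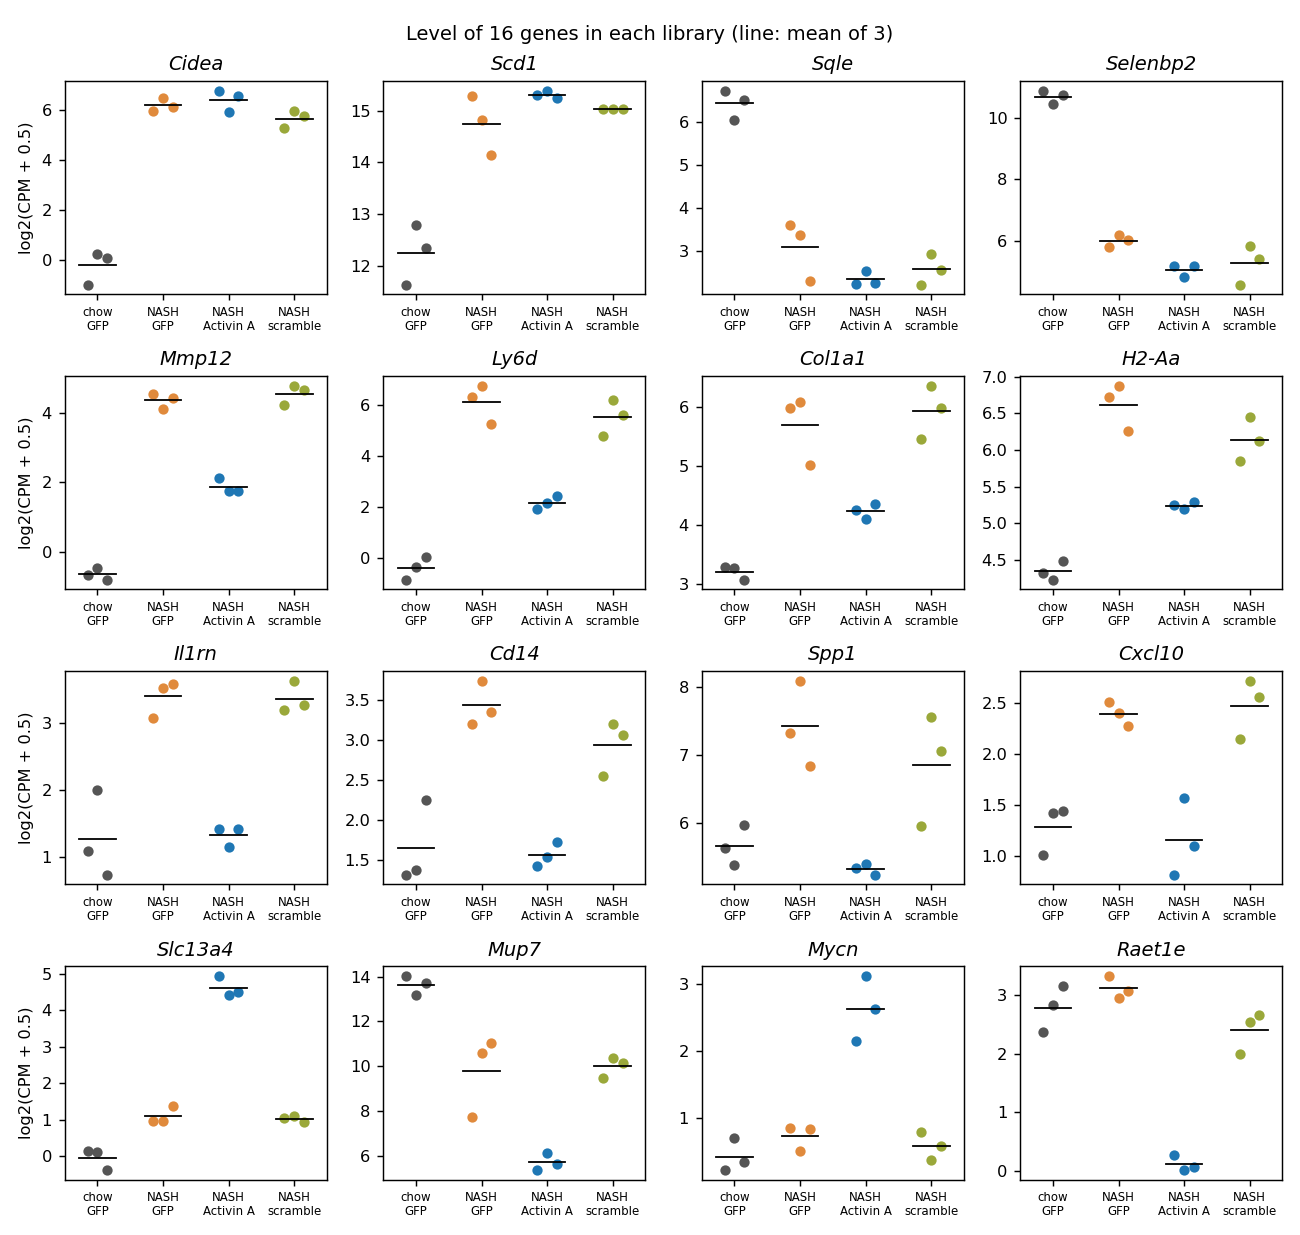
Points are single libraries and lines group means, as log2(CPM + 0.5), for 16 genes in chow GFP, NASH GFP, NASH Activin A and NASH scramble livers. Cidea, Scd1 and Sqle stayed away from chow under Activin A. Mmp12, Ly6d, Col1a1 and H2-Aa lay between, and Il1rn, Cd14, Spp1 and Cxcl10 were at chow level. Selenbp2, Slc13a4 and Mup7 were further away, and Mycn and Raet1e were called against chow under Activin A but not in NASH GFP livers.

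The 1 diet gene past chow level was Nipal1, a magnesium transporter. It stood at 3.43, 2.98 and 2.06 CPM in chow, 7.51, 10.8 and 5.56 CPM in NASH GFP and 0.927, 1.54 and 0.485 CPM in Activin A libraries, -1.52 ± 0.41 against chow (adjusted p = 0.0223). Its call against chow under Activin A was lost without Activin A library 1 or 3 or chow library 1. Its diet call was lost without NASH GFP library 2 (adjusted p = 0.0546). In NASH GFP livers it was 1.48 above chow on the log2 scale, but in scramble livers only 0.29. The lowered genes back at chow level were Col27a1, at 72.8, 56.2 and 56.4 CPM in chow, 34.6, 26.5 and 17.4 CPM in NASH GFP and 62.2, 61.8 and 59.5 CPM in Activin A, and Fam25c, at 0.25 ± 0.19 against chow (adjusted p = 0.414). Mmp7, a metalloproteinase of injured bile ducts, was the largest undecided change. It stood at 2.41 to 8.71 CPM in NASH GFP libraries, 0 to 0.303 CPM in Activin A and 0 to 0.0602 CPM in chow.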

How the data were processed

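Poly(A) RNA from liver was sequenced with a stranded kit, per the labels' protocols, and the authors deposited 1 table per comparison with whole-number counts per gene and library, not normalized, per the file headers. The genome build was GRCm38 (mm10), per the submitters' processing notes. The sources used here do not give the aligner, the counting program or its strand setting. The 23148 genes in both tables were joined by identifier, and the NASH GFP counts were the same in both for every gene. Another 45 columns of per-sample or mean values were not used.

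The 9 libraries were fitted together with edgeR 4.0.16 in R 4.3.3 (filterByExpr minimum count 10, TMM scaling, quasi-likelihood test, no covariate), with Benjamini-Hochberg adjustment over 14901 genes and 3 two-sided comparisons called at 0.05. The SE is the log2 difference divided by the square root of F. CPM levels use TMM factors over 12 libraries, including 3 scramble libraries. Folds against a group with no counts use a floor of 3 counts over the group, which covers counting error only. The fit was tested on simulated counts with 200 genes changed in the Activin A libraries only and the same spread in each group. That test does not cover the diet effect or the unequal spreads of the real groups. Members, the 44 gene lists and the rule for named genes were chosen with earlier results of these data known. Named genes were Inhba and Gpnmb, the largest of each class per direction and the 3 smallest p of each list. Genes chosen after their values were seen were Mup7, Slco1a1, Plin2, Cd36, Trem2, Lgals3, Mpeg1, Timd4, Ccl2, Irf7, Ifit1, Ifit3, Cxcl10, Ehf, Col1a1, Col3a1, Acta2, Sprr1a, Smad7, Fst, Hamp, Adora1, Esr1, Ms4a1 and Ttr. Alternatives were fits of each pair of groups, DESeq2 1.42.0, other scaling, no filter, a replicate block, scramble as the NASH control and leaving out each library. Some genes covered by these rules are not reported here.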

Additional observations from a re-analysis of the deposited data

How the results depend on the processing

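Leaving out each library in turn gave 837 to 1505 genes higher and 742 to 1433 lower than chow, 461 to 749 raised and 270 to 411 lowered diet genes remaining, 9 to 60 and 2 to 8 back, 0 to 2 and 0 to 1 past, and 12 to 31 higher and 18 to 47 lower new genes. The 51 raised genes back at chow level became 9 without Activin A library 1, 16 without Activin A library 3 and 32 without NASH GFP library 1. Scaling by library size alone moved the median difference from chow of all genes from -0.01 to 0.209 and gave 2611 genes higher and 728 lower, 1166 raised and 194 lowered diet genes remaining and 2 past. With scramble livers as the NASH control, 116 raised and 44 lowered genes were back, 2 and 9 past, and 58 and 71 new. An interval inside 1.5-fold left 5 raised and 1 lowered gene back. Without a minimum fold, 873 lowered genes remained, 12 were back, 4 and 2 were past and 60 and 63 new. Lowered genes back numbered 4 and past 1 in fits of each pair of groups, with DESeq2 and with no low-count filter. The cause of these shifts was not tested. The count of genes called against chow with DESeq2 was 1597 higher and 1478 lower. Labels share replicate numbers across groups, but same-numbered libraries did not deviate together (correlations -0.179 to 0.092), so the replicate block tests no known pairing. It gave 1134 higher and 1030 lower genes against chow, with 576 and 328 diet genes remaining, 36 and 2 back, and 19 and 27 new. Low counts limit the lists of T cell, neutrophil and biliary genes, where few members passed the filter or intervals were wide.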
